A study of Mus musculus with 6 samples.

Results

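Among the lung endothelial cells of WT and TNF-Tg mice, 199 cells carried an excess of one set of general capillary (gCAP) genes over another. The cells were selected on the UMI counts of named genes. A cell was taken when it had at least 500 genes, at most 10% mitochondrial UMIs (unique molecular identifiers, each counting 1 captured RNA molecule) and a UMI of at least 3 of *Pecam1*, *Cdh5*, *Cldn5*, *Tie1* and *Egfl7*, and when the number detected of *Lxn*, *Gna14*, *Grrp1*, *Bik*, *Dnah8* and *Car14* exceeded the number detected of *Kit*, *Sema3c*, *Npr3*, *Glp1r*, *Hmcn1* and *Scn7a* by at least 2. Cells with at least 3 of 6 aerocyte genes, at least 2 arterial (of *Gja5*, *Bmx* and *Dkk2*), venous (of *Selp*, *Bst1*, *Amigo2* and *Lhx6*) or cycling genes (of *Mki67*, *Top2a* and *Cenpf*), or at least 2 *Prnd* UMIs, were removed. The 199 cells were 0.628% of 31669 endothelial cells, from 38208 cells that passed the filters and 43545 barcodes in all. They were intended to represent an *Rgcc*-side gCAP population, but their markers were mixed and the order of *Rgcc* against the cells of the mirrored rule in TNF-Tg lungs turned on 39 cells with markers of other lineages, as given further on, so they are called the *Lxn*/*Grrp1* cells here, as a short form for the rule after its genes most often detected. The name is not a claim on levels. In TNF-Tg at 20 weeks *Lxn* was at 178 UMIs per 1000000 of the summed UMIs in these cells and 188 in the cells of the mirrored rule. In all endothelial cells outside the 199, those of the mirrored rule included, it was at 308. The 13235 cells that met the mirrored rule, an excess of at least 2 in the opposite direction, are called the *Kit*-side cells.

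The study sequenced 6 libraries from female mice, 1 for each genotype at 8, 14 and 20 weeks, each made from the pooled lungs of 3 to 5 mice. TNF-Tg mice carry a human TNF transgene and are a model in which pulmonary hypertension develops; the promoter that drives the transgene is not given in the sources used here. WT mice were their littermates without the transgene. Live (7-AAD-) cells negative for CD45 and CD326, surface proteins of leukocytes and epithelial cells, were sorted and captured by droplet 3′ RNA sequencing. Since each genotype and age has 1 library, the 3 ages served as the replicates of a genotype, and the spread given below includes any change with age. A low count in a summed library can mean fewer cells with the RNA or less RNA per cell, and the sums cannot tell these apart.

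General capillary cells line the alveolar capillary bed beside the larger aerocytes that serve gas exchange. They are regarded as the repair population of this bed, make *Gpihbp1*, which carries lipoprotein lipase to the capillary surface, and respond to VEGF, angiopoietin and BMP signals. Lymphatic endothelium, marked by the transcription factor *Prox1*, shares the pan-endothelial genes of the selection rule and was not among the classes removed by it.

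The *Lxn*/*Grrp1* cells were few in every library. The WT libraries held 17, 25 and 34 at 8, 14 and 20 weeks and the TNF-Tg libraries 31, 27 and 65. As a share of endothelial cells this was 0.318%, 0.470% and 0.553% in WT and 0.516%, 0.568% and 1.58% in TNF-Tg. The exact 95% binomial interval of the 20-week TNF-Tg library, 1.22% to 2.01%, lay above the intervals of the other 5 libraries, whereas those at 8 and 14 weeks overlapped between genotypes (0.186% to 0.509% against 0.351% to 0.731% at 8 weeks). The mean share was 0.447% ± 0.119 (SD, n = 3) in WT and 0.889% ± 0.603 (SD, n = 3) in TNF-Tg. These intervals cover counting error only. TNF-Tg cells held more UMIs, with a median of 9655 ± 725 UMIs per *Lxn*/*Grrp1* cell (SD, n = 3) against 4124 ± 325 in WT, and a rule on detected genes depends on the UMIs per cell. The rule was also applied with every cell thinned to 2000 UMIs, leaving out the 1862 shallower cells of any type that had passed the filters. The shares were then 0.354%, 0.555% and 0.542% in WT and 0.671%, 1.13% and 2.27% in TNF-Tg. The intervals overlapped between genotypes at 8 weeks but not at 14 weeks (0.366% to 0.807% in WT, 0.839% to 1.49% in TNF-Tg) or 20 weeks. Markers of another lineage, described further on, were carried by 39 of the 199 cells, 21 of them in the 20-week TNF-Tg library. Without these cells, and over the same endothelial cells, the shares were 0.30%, 0.433% and 0.472% in WT and 0.416%, 0.483% and 1.07% in TNF-Tg, with an interval of 0.780% to 1.44% in the last library. No test was made of the shares, because the rule genes themselves differed between the genotypes.

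**Figure D1:**
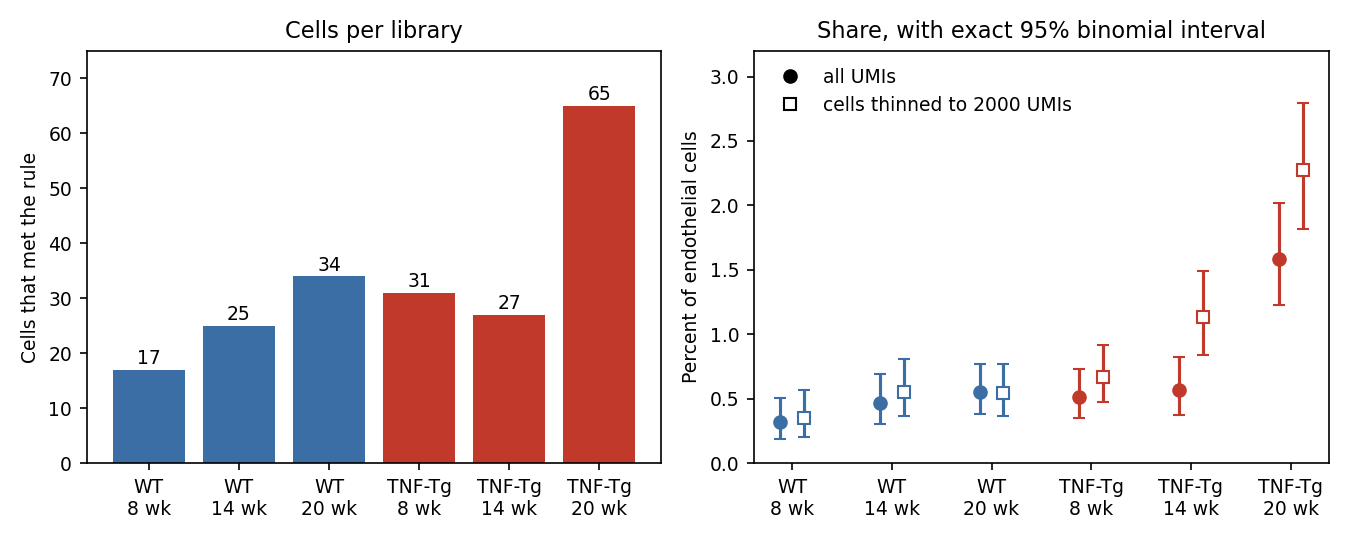
Cells that met the rule in each library (left, number of cells) and their percent of that library's endothelial cells (right; filled circles all UMIs, open squares cells thinned to 2000 UMIs, bars exact 95% binomial intervals). The 65 cells of the 20-week TNF-Tg library, 1.58% of its endothelial cells, stand above the other 5 libraries; without the cells carrying markers of another lineage the share is 1.07%.

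The share of *Kit*-side cells went the other way, at 57.6%, 59.5% and 61.5% of endothelial cells in WT and 28.8%, 20.7% and 12.4% in TNF-Tg at 8, 14 and 20 weeks. After thinning it was 64.4%, 62.8% and 64.4% in WT and 49.6%, 35.1% and 20.9% in TNF-Tg. There were 181, 126 and 111 *Kit*-side cells for each *Lxn*/*Grrp1* cell in WT, and 55.8, 36.4 and 7.82 in TNF-Tg. Many cells passed the gene excess and were then removed for their other markers: 17, 9 and 26 in WT, but 70, 112 and 282 in TNF-Tg, or 81.3% of the cells with the excess in the last library. Of the cells kept, 177 exceeded by exactly 2 genes and only 22 by more, and a further 703 cells stood just outside the rule with an excess of 1.

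Among the rule genes, *Lxn* (latexin) was detected in 173 of the 199 cells, *Grrp1* in 166, *Bik*, a pro-apoptotic BCL2-family gene, in 130, *Gna14* and *Dnah8* in 79 each and *Car14*, a membrane carbonic anhydrase, in 62. Of the opposing set, *Sema3c* was seen in 80 cells, *Scn7a* in 59, *Kit* in 58, *Hmcn1* in 37, *Glp1r* in 29 and *Npr3* in 4. No opposing gene was seen in 78 cells, and 63 cells qualified with only 2 genes of the first set and none of the second. By library these were 8 of 17, 5 of 25 and 10 of 34 cells in WT and 5 of 31, 8 of 27 and 27 of 65 in TNF-Tg at 8, 14 and 20 weeks. In the sums, *Lxn* measured 356, 279 and 419 CPM in WT against 371, 242 and 178 in TNF-Tg, *Dnah8* 178, 139.7 and 118 CPM against 128, 44.7 and 24.6, and *Car14* 165, 183 and 165 CPM against 67.5, 14.9 and 8.20 (WT at 20 weeks without 1 cell described further on). These values chose the cells and are given as a description.

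The label was checked against markers that the rule did not use. At least 3 of 8 gCAP genes (*Gpihbp1*, *Ptprb*, *Plvap*, *Cd93*, *Aplnr*, *Tek*, *Lpl* and *Rgcc*) were detected in 184 of 199 cells (92.5%), between 88.2% and 100% by library. This was between 92.6% and 99.2% in the *Kit*-side cells and between 70.7% and 84.3% in the other endothelial cells. Most of the cells therefore carried gCAP transcripts, but the group was mixed. At least 2 of the lymphatic genes *Prox1*, *Pdpn*, *Flt4* and *Reln* were detected in 1 of 17, 2 of 25 and 4 of 34 WT cells and in 5 of 31, 0 of 27 and 21 of 65 TNF-Tg cells, which is 32.3% of the 20-week TNF-Tg library against 0.591% of its *Kit*-side cells and 1.81% of its other endothelial cells. The summed level of the 8 lymphatic genes measured, led by *Nts*, was 662, 1388 and 584 UMIs per 1000000 of the sum (CPM) in WT and 820.4, 22.4 and 3568 in TNF-Tg, whereas it stayed between 34.2 and 82.2 in the *Kit*-side cells.

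At least 2 of the arterial genes *Gja5*, *Bmx*, *Dkk2* and *Gja4*, all but the last of which the rule used, were detected in 39 cells, 23 of them in the 20-week TNF-Tg library. Mesenchymal markers (at least 3 of 14 genes) were found in 4 of the 27 cells of the 14-week TNF-Tg library and in 1 of the 31 at 8 weeks. The summed mesenchymal level was 5291 CPM in the first, led by the smooth muscle genes *Tagln* and *Acta2*, and between 12.7 and 334 CPM in the other libraries. Epithelial genes reached 3 in 2 cells and immune genes in 1 cell, and no cell had 3 mesothelial genes. The leukocyte marker *Ptprc* was at 0 in all libraries but TNF-Tg at 20 weeks (6.84 CPM), and *Epcam* was at 0 in all but WT at 20 weeks. By Scrublet score, 5 of the 199 cells were marked as likely doublets. The marks went to the highest scores of each library, in a number set beforehand by a rate of 0.8% per 1000 cells. No barcode of an *Lxn*/*Grrp1* cell recurred in a second library. The part of these other markers in the differences below was not tested. Leaving out the 39 cells that carried them takes *Prox1*, one of the genes used to find them, to 0 CPM in every library but TNF-Tg at 20 weeks (13.7 CPM), and of the 24 named genes that could then be tested *Col4a2* and *Enpp2* lost their call. These 39 cells include the very large cell of the 20-week WT library described further on. Both calls were also lost when only that cell was left out.

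**Figure D2:**
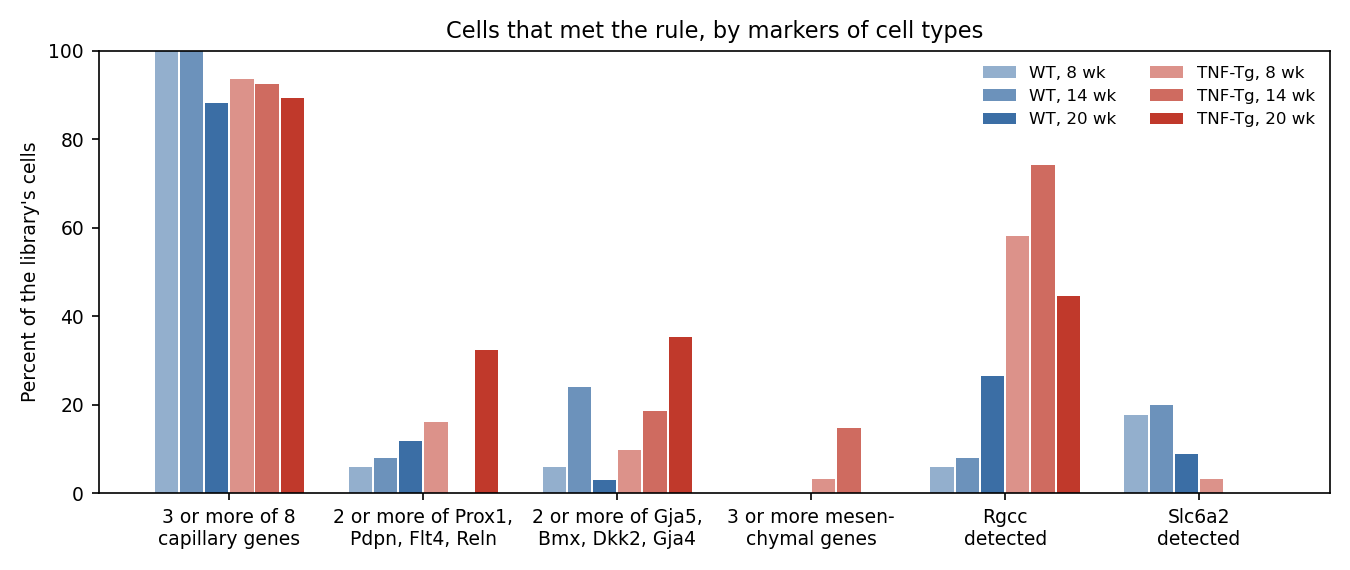
Percent of each library's *Lxn*/*Grrp1* cells with markers of cell types (x axis) in WT (blue) and TNF-Tg (red), darker with age. Lymphatic genes marked 32.3% of the cells of the 20-week TNF-Tg library and *Rgcc* was detected in 74.1% of those of the 14-week TNF-Tg library.

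*Rgcc*, a cell cycle regulator that is used as a gCAP gene, was detected in 1 of 17, 2 of 25 and 9 of 34 WT cells and in 18 of 31, 20 of 27 and 29 of 65 TNF-Tg cells. Thinned to 2000 UMIs, 14.5% of WT and 36.1% of TNF-Tg cells had a UMI, while 9.93% of 443 TNF-Tg leukocytes (*Ptprc* UMI, no endothelial gene, median 6807 UMIs) and 4 of 12 WT leukocytes had one without thinning. Its level was 153, 26.2 and 242 CPM in WT against 239.7, 429 and 403 in TNF-Tg, with WT at 20 weeks overlapping TNF-Tg at 8 weeks. All 12 UMIs of the 8-week WT library came from 1 cell. In *Kit*-side cells it was 41.5, 21.3 and 27.9 CPM in WT against 244, 529 and 652 in TNF-Tg. By cells with a UMI, the WT shares were 5.88%, 8.0% and 26.5%, against 12.8%, 6.96% and 8.60% on the *Kit* side. The 8-week order was thus the reverse of that in CPM. The TNF-Tg shares were 58.1%, 74.1% and 44.6% against 50.9%, 69.2% and 71.9%. In CPM, *Rgcc* was higher than on the *Kit* side in the WT libraries of all 3 ages, by little at 14 weeks, but not in any TNF-Tg library. Without the 39 cells with markers of another lineage the direction turned, at 290.5, 573 and 675 CPM in TNF-Tg, each slightly above its *Kit*-side value.

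One cell decided the sum of a library. A cell of the 20-week WT library held 171589 UMIs, 5.09 times the next highest of the 199 cells and 50.3% of its library's sum of 341006. Its leading genes were *Krt13* (5829 UMIs), *Krt4* (5057), *Mt4* (4122), *Fabp5* (3853) and *Krtdap* (2786), genes of squamous epithelium, and it had 3 *Epcam* UMIs. Of the endothelial genes it had 2 UMIs of *Cdh5*, 1 of *Cldn5* and 3 of *Egfl7* and none of *Pecam1* and *Tie1*, and of the rule genes 1 each of *Lxn*, *Dnah8* and *Car14*. It was not marked as a doublet, and it is 1 of the 39 cells with markers of another lineage. WT levels at 20 weeks are given below without this cell, and fold changes and adjusted p are for all 199 cells unless they are said to be without it. Of the 29 genes named from the genotype comparison, 23 were also called without it, while *Cd34*, *Col4a2*, *Jag2* and *Enpp2* were not and *Bmp2* and *Lepr* fell under the filter on low counts. The sums were 78571, 114534 and 169417 UMIs in WT (without that cell) and 296198, 268169 and 731432 in TNF-Tg. The next largest shares of a sum held by 1 cell were 19.3% in WT at 14 weeks and 12.6% in TNF-Tg at 14 weeks.

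**Figure D3:**
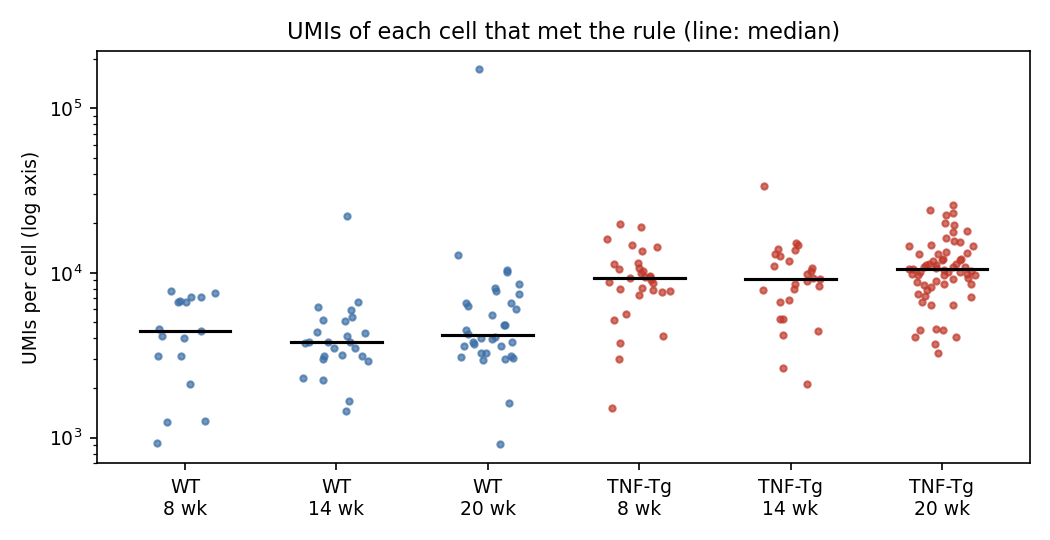
UMIs of each of the 199 cells by library on a log axis, with the median as a line. Cells of the 3 TNF-Tg libraries have medians of 9221 to 10492 UMIs against 3780 to 4425 in WT, and 1 WT cell at 20 weeks stands apart at 171589.

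Genotypes were compared with edgeR's quasi-likelihood test on the sums, 3 TNF-Tg libraries against 3 WT libraries, leaving the genes of the rule untested. Of 4434 genes, 41 (0.925%) differed at an adjusted p under 0.05, 21 higher (0.474%) and 20 lower (0.451%) in TNF-Tg. Without the keratin-rich cell, 110 of 3714 genes differed (2.96%), 28 higher (0.754%) and 82 lower (2.21%), and 31 genes were called both times. The counts rested on single libraries. With all 199 cells no gene passed without the WT library of 8 weeks or of 14 weeks, 6 passed without TNF-Tg at 14 weeks, 12 without TNF-Tg at 20 weeks and 62 without TNF-Tg at 8 weeks. Without the keratin-rich cell these counts ran from 14 (no WT library of 14 weeks) to 195 (no TNF-Tg library of 8 weeks). The named changes below hold for these libraries with that limit. Counts of calls in gene lists below stand beside 0.925% of all genes called, or 2.96% without the keratin-rich cell. At these shares a short list with no call does not show that its genes were unchanged.

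Among the 10 genes of largest fall were 3 enzymes and a transporter. *Cyp4b1*, a cytochrome P450 of lung endothelium, measured 382, 576 and 496 CPM in WT at 8, 14 and 20 weeks and 27.0, 18.6 and 42.4 CPM in TNF-Tg. Every TNF-Tg library was below every WT library. Its log2 fold change was -3.69 (SE 0.41, adjusted p 0.0111, edgeR), and -3.92 (SE 0.32, adjusted p 0.00101, edgeR) without the keratin-rich cell. It was seen in 48 of 76 WT cells and 24 of 123 TNF-Tg cells, or 50.7% and 10.7% after thinning, against 0.677% of TNF-Tg leukocytes. In *Kit*-side cells it showed a like gap, at 488, 765 and 658 CPM in WT against 67.3, 47.6 and 51.9 in TNF-Tg, and the interaction between group and genotype did not pass (adjusted p 1 and 0.982, edgeR).

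*Slc16a9*, a member of the monocarboxylate transporter family, measured 115, 183 and 136 CPM in WT against 13.5, 3.73 and 6.84 in TNF-Tg, again without overlap. Its log2 fold change was -3.94 (SE 0.48, adjusted p 0.0111, edgeR) and -4.14 (adjusted p 0.00153, edgeR) without the keratin-rich cell. *Fmo2*, a flavin monooxygenase, measured 293, 445 and 236 CPM in WT against 20.3, 44.7 and 20.5 in TNF-Tg, with log2 fold changes of -3.34 and -3.56 (adjusted p 0.0269 and 0.00212, edgeR). *Aldh2*, the mitochondrial aldehyde dehydrogenase, fell from 1285, 1493 and 767 CPM to 263, 112 and 83.4 CPM, by 2.82 on the log2 scale (SE 0.52, adjusted p 0.0402, edgeR). *Acer2*, a ceramidase, held 267, 262 and 259.7 CPM in WT against 60.8, 82.0 and 64.3 in TNF-Tg, without overlap (adjusted p 0.0435; 0.0575 with age as a block, edgeR).

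Among genes of capillary identity, *Plvap*, which forms the diaphragms of fenestrae and caveolae, measured 1565, 1309.7 and 1387 CPM in WT against 415, 365 and 373 in TNF-Tg. The genotypes were well apart at all 3 ages, and the log2 fold change was -1.64 (SE 0.30, adjusted p 0.0402, edgeR), or -1.87 (SE 0.17, adjusted p 0.00114, edgeR) without the keratin-rich cell. With age as a block its adjusted p for all cells was 0.0513 (edgeR). *Tspan7*, a tetraspanin, measured 955, 1589 and 1369 CPM in WT against 307, 168 and 77.9 in TNF-Tg (log2 fold change -2.60, adjusted p 0.0411, edgeR). *Adgrl3*, a latrophilin, measured 50.9, 201 and 159 CPM in WT against 20.3, 14.9 and 12.3 in TNF-Tg (log2 fold change -2.89, adjusted p 0.0374, edgeR). Of the 15 genes listed for gCAP, all were tested, 0 were higher and 3 lower, and 8 were lower without the keratin-rich cell. Their median log2 fold change was -1.54, or -1.77 without that cell, beside -0.0045 and 0.0249 over all genes tested. The 5 genes called in addition without it were *Gpihbp1*, *Ptprb*, *Tek*, *Ramp2* and the fatty acid receptor *Cd36*. *Gpihbp1* measured 1833, 1231 and 1281 CPM in WT against 398, 205 and 405 in TNF-Tg (log2 fold change -1.88, adjusted p 0.0636 with all cells; -2.08, adjusted p 0.00617 without that cell, edgeR).

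*Ptprb*, the endothelial receptor phosphatase that restrains TEK, measured 1909, 1947 and 1434 CPM in WT against 412, 507 and 502 in TNF-Tg, with adjusted p of 0.0631 for all cells and 0.00153 without the keratin-rich cell (edgeR). *Tek*, the angiopoietin receptor, followed at 598, 454 and 466 CPM against 213, 119 and 111 CPM (adjusted p 0.110 and 0.00993, edgeR). No library of the lower genotype reached the other for either gene. In the VEGF and angiopoietin list, of 21 genes tested 0 rose and 1 fell, the lymphangiogenic ligand *Vegfc*, from 89.1, 139.7 and 183 CPM to 0, 11.2 and 12.3 CPM (log2 fold change -3.58, adjusted p 0.0269, edgeR). Without the keratin-rich cell 4 fell, *Flt1*, *Tek* and *Ptprb* being added. *Kdr*, the main VEGF receptor, measured 344, 410.4 and 555 CPM in WT against 287, 239 and 458 in TNF-Tg, with overlapping genotypes and adjusted p of 0.960 and 0.530 (edgeR). The median of the list was -0.33 on the log2 scale, or -0.61 without that cell.

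Among genes that keep blood fluid, *Thbd*, thrombomodulin, measured 865, 1039 and 1104 CPM in WT against 290.3, 276 and 249 in TNF-Tg, with log2 fold changes of -1.62 (SE 0.28, adjusted p 0.0347, edgeR) and, without the keratin-rich cell, -1.88 (adjusted p 0.00153, edgeR). Of 15 haemostasis genes tested it was the only one called, in either direction, with all 199 cells. *Vwf*, von Willebrand factor, was lower in each TNF-Tg library (60.8, 239 and 42.4 CPM) than in any WT library (1196, 1100.1 and 307 CPM), with adjusted p of 0.156 for all cells and 0.0466 without the keratin-rich cell (edgeR). The noradrenaline transporter *Slc6a2*, listed among the vein genes, was at 407, 402 and 23.6 CPM in WT against 6.75, 0 and 0 in TNF-Tg, in 11 WT cells and 1 TNF-Tg cell, with 30 of the 32 UMIs of the 8-week WT library in 1 cell, and was not tested because of its low counts. Among genes of caveolae and junctions, 2 of 21 fell (*Plvap* and *Ehd4*, a membrane trafficking ATPase at 1133, 1109 and 1222 CPM in WT against 382, 343 and 220.1 in TNF-Tg), and *Cav1*, *Cav2* and *Cavin2* were added without the keratin-rich cell.

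**Figure D4:**
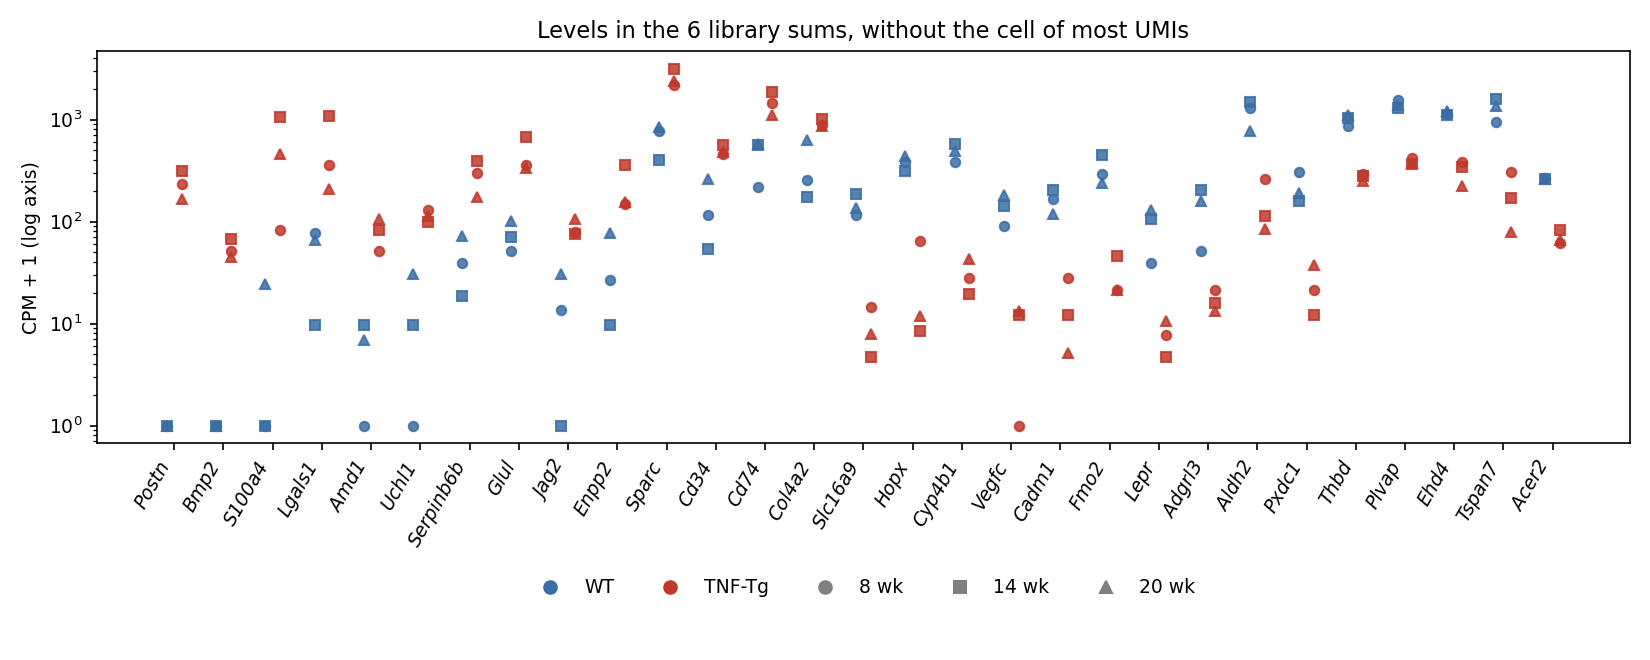
Levels (CPM + 1, log axis) of the genes named by rule as changed between genotypes, in WT (blue) and TNF-Tg (red) sums at 8, 14 and 20 weeks (circle, square, triangle), with WT at 20 weeks shown without the keratin-rich cell. *Postn* and *Bmp2* are at 0 in the 3 WT libraries, and *Cyp4b1* lies at 382 to 576 CPM in WT and 18.6 to 42.4 CPM in TNF-Tg.

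Of 29 basement membrane and matrix genes tested, 3 rose in TNF-Tg with all 199 cells, of which 1 also did so without the keratin-rich cell. *Sparc*, a matricellular collagen-binding protein, measured 776, 402 and 838 CPM in WT against 2184, 3158 and 2375 in TNF-Tg. The genotypes did not overlap, and the log2 fold change was 2.25 (SE 0.33, adjusted p 0.0269, edgeR), or 1.95 (adjusted p 0.00628, edgeR) without the keratin-rich cell. The collagen IV chains *Col4a1* and *Col4a2*, which assemble into one trimer, rose with it. *Col4a1*, added to the named genes as the partner chain of *Col4a2*, measured 356, 533 and 1015 CPM in WT against 1526, 1786 and 1739 in TNF-Tg (log2 fold change 1.77, adjusted p 0.0278, edgeR). *Col4a2* measured 255, 175 and 632 CPM in WT against 874, 1022 and 867 in TNF-Tg (log2 fold change 1.78, adjusted p 0.0402, edgeR). Without the 39 cells of other lineages, which include the keratin-rich cell, its log2 fold change was 1.45 with adjusted p 0.0628 (edgeR). Without the keratin-rich cell, which lowers the WT value at 20 weeks in the sum of all cells, their log2 fold changes were 1.39 and 1.34 with adjusted p of 0.0502 and 0.100 (edgeR), past the threshold. No gene of the list fell with all cells, and its median log2 fold change was 0.88, while without that cell *Sparc* rose and 1 gene fell (*Itga1*, a collagen receptor subunit), with a median of 0.54. *Igfbp7*, a secreted binding protein of the vessel wall, measured 458, 279 and 1623 CPM in WT against 1904, 5896 and 2814 in TNF-Tg, without overlap but with adjusted p of 0.0587 and 0.0948 (edgeR).

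*Col4a1* (chr8:11198423-11312826, minus strand, GRCm38) and *Col4a2* (chr8:11312805-11449287, plus strand) are read away from each other and their annotated first exons overlap by 22 bases. The RefSeq windows of 250 bases before and 50 after each start (chr8:11312777-11313076 and chr8:11312555-11312854, build GRCm38.p6), shown because both chains were higher together, share 78 bases, printed in capitals, each 5′ to 3′ on its gene's strand.
Col4a1: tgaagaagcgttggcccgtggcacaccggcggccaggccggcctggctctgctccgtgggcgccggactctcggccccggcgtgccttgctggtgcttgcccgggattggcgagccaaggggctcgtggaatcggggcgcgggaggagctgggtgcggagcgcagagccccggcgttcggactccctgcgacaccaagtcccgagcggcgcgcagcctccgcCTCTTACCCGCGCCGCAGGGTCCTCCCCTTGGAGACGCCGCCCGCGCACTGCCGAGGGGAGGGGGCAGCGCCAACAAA
Col4a2: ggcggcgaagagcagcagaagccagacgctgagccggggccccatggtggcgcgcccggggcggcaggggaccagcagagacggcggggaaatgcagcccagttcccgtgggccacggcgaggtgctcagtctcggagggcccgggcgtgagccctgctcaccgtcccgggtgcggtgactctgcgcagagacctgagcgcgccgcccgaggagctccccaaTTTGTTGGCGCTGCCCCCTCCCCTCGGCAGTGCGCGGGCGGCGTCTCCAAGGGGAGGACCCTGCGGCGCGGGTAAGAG
The stretch in capitals is the reverse complement in one window of that in the other. The letters CCAAT occur once in each window, on the strand opposite to *Col4a1* and on that of *Col4a2*, and 37.4% of 32817 mouse promoter windows of this length hold CCAAT on either strand. TATAAA is in neither (13.6% of all windows hold it on either strand), and GGGCGG is in both (35.6% of all windows). None of the 3 motifs holds another, and the G and C content is 74.0% and 73.7%, beside a median of 52.7%.

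*Cd34*, a surface sialomucin of capillary endothelium and of progenitor cells, measured 115, 52.4 and 259.7 CPM in WT against 463, 559 and 476 in TNF-Tg. It was detected in 23 of 76 WT and 104 of 123 TNF-Tg cells, 15.9% and 59.0% after thinning, against 7.67% of TNF-Tg leukocytes. Its log2 fold change was 2.19 (SE 0.37, adjusted p 0.0298, edgeR), and 1.74 with adjusted p 0.0543 without the keratin-rich cell. *Cd74*, the invariant chain of MHC class II, measured 216, 568 and 573 CPM in WT against 1438, 1857 and 1105 in TNF-Tg (log2 fold change 1.98, adjusted p 0.0435; without that cell 1.67 and 0.0322, edgeR). It was the only one of 6 class II genes tested to be called, and it is abundant in leukocytes, 62.8% of which had a UMI in TNF-Tg. None of the 17 class I genes tested was called, nor any of the 26 interferon-stimulated genes, 18 NF-kB and TNF response genes or 15 TNF superfamily and apoptosis genes (edgeR), and without the keratin-rich cell only *Igtp*, an interferon-induced GTPase, was called among these lists, as lower. Their median log2 fold changes were -0.40, -0.38, 0.65 and -0.18, beside -0.0045 over all genes tested. With 0.925% of all genes called, the lack of calls in these lists does not show that such a response was absent.

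*Bmp2*, a bone morphogenetic protein, had no UMI in the 76 WT cells and 50.6, 67.1 and 43.8 CPM in TNF-Tg, where 29 of 123 cells had a UMI (9.02% after thinning, against 2.26% of TNF-Tg leukocytes without thinning). Against a floor of 3 UMIs over the WT sums without the keratin-rich cell (8.28 CPM), its mean of 53.8 CPM was at least 6.51-fold higher. It passed the test with all 199 cells (adjusted p 0.0402; 0.0711 with age as a block, edgeR) and without the 39 cells of other lineages (adjusted p 0.0122, edgeR), and fell under the filter on low counts without the keratin-rich cell. Its receptor *Bmpr2*, the gene mutated in heritable pulmonary arterial hypertension, measured 827, 943 and 749.6 CPM in WT against 321, 362 and 328 in TNF-Tg, without overlap, with a log2 fold change of -1.11 (adjusted p 0.166, edgeR) and -1.30 without the keratin-rich cell (adjusted p 0.00649, edgeR). Of 15 BMP pathway genes tested, 1 rose and 0 fell, and without that cell 0 rose and 2 fell (*Bmpr2* and *Acvrl1*).

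*Glul*, *Serpinb6b* and *Uchl1* were also higher in TNF-Tg, with at most 25% of the UMIs of a TNF-Tg library in 1 cell. *Glul*, glutamine synthetase, measured 50.9, 69.8 and 100.3 CPM in WT against 361, 671 and 336 in TNF-Tg, in 18 of 76 and 88 of 123 cells beside 27.3% of TNF-Tg leukocytes (log2 fold change 2.93, SE 0.39, adjusted p 0.0207; without the keratin-rich cell 2.55 and 0.00697, edgeR). *Serpinb6b*, a protease inhibitor, measured 38.2, 17.5 and 70.8 CPM in WT against 297, 388 and 175 in TNF-Tg, in 14 and 81 cells beside 5.19% of TNF-Tg leukocytes (log2 fold change 3.07, adjusted p 0.0269, edgeR). *Uchl1*, a ubiquitin hydrolase, measured 0, 8.73 and 29.5 CPM in WT against 128, 97.0 and 113 in TNF-Tg, in 3 and 54 cells (log2 fold change 3.21, adjusted p 0.0269, edgeR). The Notch ligand *Jag2* reached 77.7, 74.6 and 105 CPM in TNF-Tg from at most 29.5 CPM in WT (adjusted p 0.0435; 0.0543 without the keratin-rich cell and 0.0524 with age as a block, edgeR), and *Amd1*, of polyamine synthesis, 50.6, 82.0 and 104 CPM from at most 8.73 CPM (adjusted p 0.0402, edgeR). *Enpp2*, autotaxin, reached 149, 354 and 156 CPM from at most 76.7 CPM (log2 fold change 2.82, adjusted p 0.0435, edgeR). The call was lost without the keratin-rich cell (adjusted p 0.0631, edgeR) and with age as a block (adjusted p 0.0542, edgeR). It was also lost without the 39 cells of other lineages, which include the keratin-rich cell (1.74, adjusted p 0.0505, edgeR). In TNF-Tg at 8 weeks 1 cell held 72.7% of the *Enpp2* UMIs.

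In contrast, the gene of largest change rested on few cells. *Postn*, periostin, a matrix protein of fibroblasts and smooth muscle, had no UMI in WT against 233, 313 and 164 CPM in TNF-Tg, at least 28.6-fold above the WT floor (adjusted p 0.0111, edgeR), and its fitted direction reversed, to a log2 fold change of -1.69, with the rule applied to cells thinned to 2000 UMIs. Only 13 of 123 TNF-Tg cells had a UMI, and 1 cell held 98.6%, 48.8% and 49.2% of the library's UMIs at 8, 14 and 20 weeks. Without the 39 cells with markers of another lineage, the levels were 4.27, 15.2 and 2.29 CPM. *Lgals1*, a galectin, and *S100a4*, a calcium-binding protein, showed the same in part. *Lgals1* measured 76.4, 8.73 and 64.9 CPM in WT against 358, 1081 and 208 in TNF-Tg, and without those 39 cells 0, 11.2 and 73.9 CPM in WT and 12.8, 10.1 and 80.0 in TNF-Tg (adjusted p 0.0435 for all cells and 0.0542 with age as a block, edgeR). *S100a4* measured 0, 0 and 23.6 CPM in WT against 81.0, 1052 and 454 in TNF-Tg, and without those cells 0, 0 and 13.4 CPM in WT and 8.54, 96.4 and 393 in TNF-Tg. With those 39 cells left out, these 3 genes, *Adgrl3* and *Lepr* fell under the filter on low counts, and 22 of the 24 genes that remained of the 29 named from the genotype comparison were called.

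The remaining genes lower in TNF-Tg were of varied function. The atypical homeobox gene *Hopx*, also an alveolar epithelial marker, measured 382, 314 and 443 CPM in WT against 64.1, 7.46 and 10.9 in TNF-Tg (log2 fold change -3.77, adjusted p 0.0278, edgeR), in 53.9% and 15.4% of cells beside 23.5% of TNF-Tg leukocytes. The adhesion gene *Cadm1* measured 165, 201 and 118 CPM in WT against 27.0, 11.2 and 4.10 in TNF-Tg (-3.46, adjusted p 0.0402, edgeR). *Pxdc1* measured 305, 157 and 189 CPM in WT against 20.3, 11.2 and 36.9 in TNF-Tg (-2.78, adjusted p 0.0388, edgeR). The leptin receptor *Lepr* measured 38.2, 105 and 129.9 CPM in WT against 6.75, 3.73 and 9.57 in TNF-Tg (-3.25, adjusted p 0.0278, edgeR). None of the 4 overlapped between genotypes.

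Among the remaining lists, the chemokine (7 tested), complement (2), TGF-beta (14), nitric oxide, endothelin and prostanoid (10), transcription factor (33), glycolysis (11), lymphatic (6), vein (8) and dissociation and heat-shock (15) genes gave no call with all 199 cells, beside 0.925% of all genes tested. The dissociation list summed to between 5447 and 7316 CPM in every library. Without the keratin-rich cell, 3 prostanoid and nitric oxide list genes fell (*Cav1*, *Cav2* and the angiotensin-converting enzyme *Ace*), *Vwf* fell among the vein genes, *Pmepa1* rose in the TGF-beta list, *Eno1* rose in glycolysis and the immediate early genes *Jun*, *Dusp1* and *Btg2* fell in the dissociation list. Of the transcription factors 1 rose (*Sox17*, at 165, 201 and 159 CPM in WT against 574, 518 and 351 in TNF-Tg) and 3 fell (*Epas1*, *Gata2* and *Klf7*). With all 199 cells the artery list had 1 lower gene of 14 (*Vegfc*), the aerocyte list 1 of 12 (*Cyp4b1*), the lipid list 2 of 18 (*Cyp4b1* and *Acer2*) and the leukocyte adhesion list 1 higher of 9 (*Cd34*). Once the keratin-rich cell was left out, the artery list had 1 lower and 1 higher of 13, the aerocyte list 4 lower of 12, the lipid list 5 lower of 15 and the adhesion list none of 8 (edgeR). *Itga2*, a collagen receptor subunit, overlapped between genotypes (63.6, 69.8 and 59.0 CPM against 105, 134 and 52.0 CPM), and *Irf8* and the endothelin receptor *Ednrb* were too low to test. *Ednrb* reached 242 CPM in TNF-Tg at 20 weeks, or 18.3 CPM without the cells carrying markers of another lineage.

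Compared with the *Kit*-side cells of the same libraries, the *Lxn*/*Grrp1* cells had higher levels of 573 and lower levels of 712 genes in all 6 libraries, of 3758 genes reaching 50 CPM. The comparison is a description, since the rule fixed both groups and genes that go with the rule genes follow it. The ratios use CPM + 10. The gene counts and the ratios include the keratin-rich cell unless said otherwise. That cell held 50.3% of the UMIs summed in the WT library of 20 weeks, so the direction in this library may rest on it. Gene counts without that cell are not given. The gap junction gene *Gja1* led the higher genes, at 38.2, 166 and 118 CPM in WT against 7.69, 4.51 and 7.30 CPM on the *Kit* side, and 172, 7.46 and 97.1 CPM in TNF-Tg against 4.97, 7.04 and 2.14 CPM. The keratin-rich cell alone brought the WT level at 20 weeks to 836 CPM. *S100a6*, *Fbln5* (fibulin of elastic fibres), *Anxa1*, *Dapk2*, *Tshz2*, *Cp* (ceruloplasmin), *Ctsh* and *Pdlim4* were also among them, with mean log2 ratios from 2.43 to 2.09. Without the keratin-rich cell that of *Anxa1*, a phospholipid-binding annexin, went from 2.21 to 1.49, since its WT level at 20 weeks went from 528 to 17.7 CPM. *Fbln5* measured 153, 131 and 53.1 CPM against 7.19, 11.5 and 6.90 CPM in WT and 47.3, 134 and 94.3 CPM against 7.65, 10.8 and 10.2 CPM in TNF-Tg. *Prox1* measured 12.7, 26.2 and 70.8 CPM in WT against 60.8, 0 and 261 in TNF-Tg, and at most 2.52 CPM on the *Kit* side.

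Haemoglobin genes led the genes lower than on the *Kit* side (*Hbb-bs*, *Hba-a2*, *Hba-a1* and *Hbb-bt*, mean log2 ratios -3.40 to -2.46), with the fibroblast gene *Dcn* (-2.75). None of these is regarded as an endothelial product. *Nckap5*, *Casc4*, *Gm26917*, *Prickle2* and *Hpgd* followed. *Hpgd*, which breaks down prostaglandins, measured 3004, 2558 and 2414 CPM in WT against 3277, 2968 and 3834 CPM on the *Kit* side, and 905, 313 and 24.6 CPM in TNF-Tg against 2046, 1557 and 1044 CPM.

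**Figure D5:**
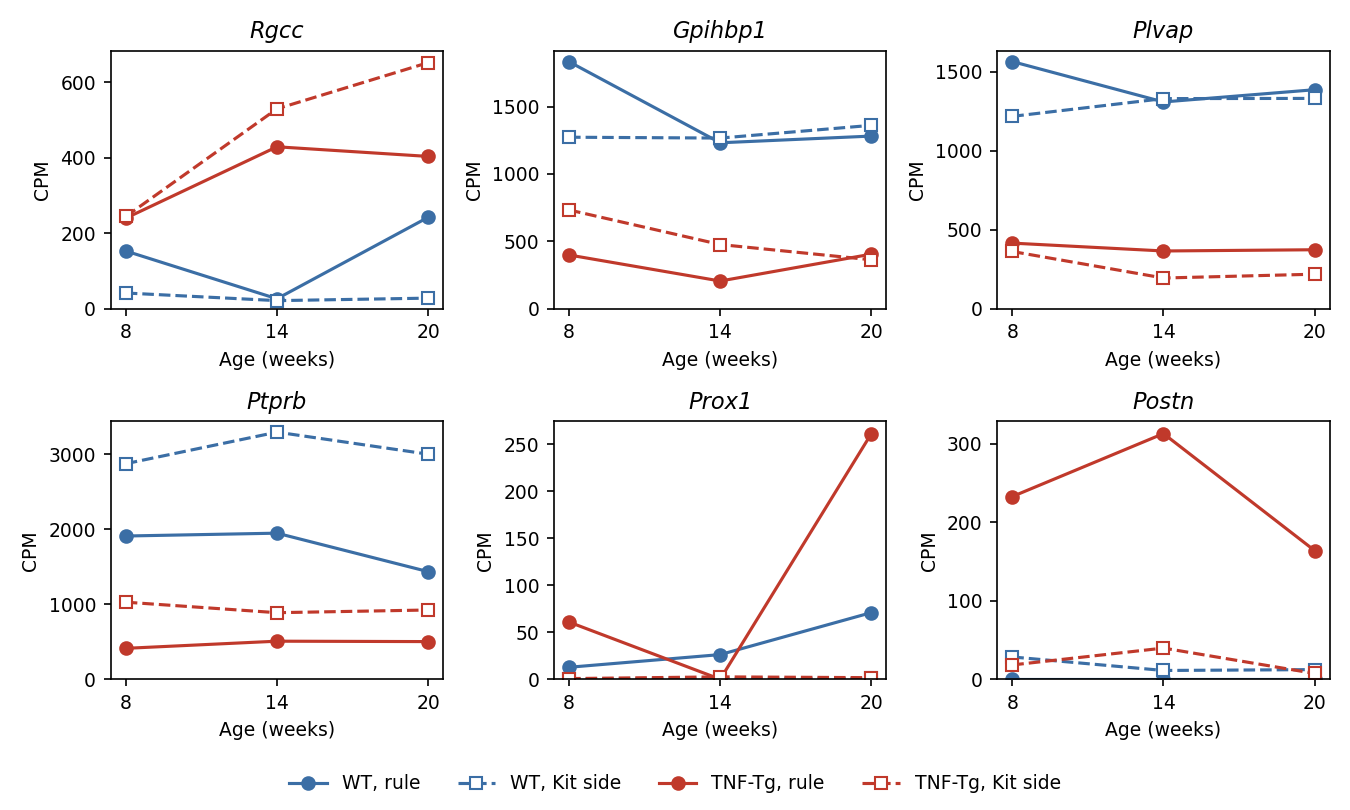
Levels in CPM of 6 genes against age in weeks, for the *Lxn*/*Grrp1* cells (filled circles, solid) and the *Kit*-side cells (open squares, dashed) of WT (blue) and TNF-Tg (red) lungs, with WT at 20 weeks shown without the keratin-rich cell. *Plvap* and *Ptprb* are lower in TNF-Tg in both groups, *Prox1* reaches 261 CPM in the *Lxn*/*Grrp1* cells of TNF-Tg at 20 weeks, and *Rgcc* is highest in the *Kit*-side cells of TNF-Tg.

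Whether the genotype difference itself differed between the *Lxn*/*Grrp1* and *Kit*-side cells was tested with the interaction term of an edgeR fit on the 12 sums, with the library as a block. Of 10891 genes, 4 (0.0367%) passed, and without the keratin-rich cell 17 of 10913 (0.156%). *Ndrg1*, a stress-responsive gene, measured 115, 131 and 82.6 CPM in WT against 23.6, 67.1 and 127 in TNF-Tg *Lxn*/*Grrp1* cells, against 11.3, 15 and 15.3 CPM and 15.8, 55.4 and 85.2 CPM on the *Kit* side. Of the *Ndrg1* UMIs in WT *Lxn*/*Grrp1* cells, 1 cell held 55.6% at 8 weeks, 53.3% at 14 weeks and, with all cells, 61.1% at 20 weeks. The interaction, the genotype difference of the *Lxn*/*Grrp1* cells less that of the *Kit*-side cells, was -2.47 on the log2 scale (SE 0.35, adjusted p 0.00363, edgeR). Without the 39 cells with markers of another lineage it was -1.69 with adjusted p 0.25 (edgeR), and with the sums thinned to the lowest total it reversed to 2.40 (adjusted p 0.9995, edgeR). *Rgcc* showed an interaction of -2.47 with adjusted p 0.0511, and of -2.45 (SE 0.38) with adjusted p 0.00170 without the keratin-rich cell (edgeR). Its WT level in the *Lxn*/*Grrp1* cells rested on 12 UMIs of 1 cell at 8 weeks and on 3 UMIs at 14 weeks. At 20 weeks, with all cells, 1 cell held 44.6% of its 74 UMIs. Leaving out the 39 cells turned the order of its TNF-Tg levels against the *Kit* side, as given above. None of the genes *Cyp4b1*, *Plvap*, *Ptprb*, *Bmpr2*, *Thbd*, *Sparc*, *Cd34* and *Cd74* passed the interaction test, with adjusted p from 0.344 to 1 (edgeR, both ways), which does not show that the 2 groups responded alike.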

How the data were processed

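Cells were captured with 10x 3′ chemistry from 6 libraries. The authors counted UMIs per gene and cell with Cell Ranger against mm10 before deposit, so the deposited values are unnormalised counts. Per the file headers the version was 5.0.0 for the 8-week libraries and 6.0.1 for the others, and the submitters' processing notes name 5.0.0. The libraries held between 33680696 and 72655387 UMIs.

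Cells were filtered and selected as described (Python 3.11.15, scanpy 1.11.5 with Scrublet for doublets, which were kept), and UMIs were summed per library. The genotypes were compared with edgeR 4.0.16 (R 4.3.3, TMM, filterByExpr, quasi-likelihood test, Benjamini-Hochberg adjustment over all genes tested, threshold 0.05), leaving rule genes untested. The members and gene lists were chosen with earlier results of these data known. Named genes were the 10 largest changes in each direction of at least 50 CPM with the same sign at all 3 ages, up to 2 per list and direction, the called interactions, the 10 largest ratios to *Kit*-side cells in each direction, and genes the study discusses; 1 gene that met this rule is not reported here. Left-out cells (the keratin-rich cell, and those of other lineages) were chosen after seeing the data. The labels pair the libraries by age, with WT littermates as controls, but same-age libraries did not deviate together from their genotype means (Pearson r of -0.07, -0.13 and 0.02 across 4453 genes, which are not independent replicates). Alternatives were DESeq2 1.42.0, other scaling, filters, thinning, an age block and each library left out. On simulated data of 4678 genes the genotype test recovered 83.7% of 4-fold and 11.4% of 2-fold changes, and on 11313 genes the interaction test 21% and 2%. Since no source ties the libraries to separate cohorts beyond genotype and age, p-values measure the spread between these libraries.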

Additional observations from a re-analysis of the deposited data

Results flagged for a closer look

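In 4 genes the genotype difference differed between the *Lxn*/*Grrp1* and the *Kit*-side cells by the interaction term (edgeR, library as block, log2 scale). The interaction of *Ndrg1* was -2.47 (adjusted p 0.00363, edgeR), and it reversed to 2.40 with the sums thinned to the lowest total. Those of *Postn*, 13.16 (adjusted p 0.000692, edgeR), of the lung-restricted cytochrome oxidase subunit *Cox4i2*, 6.31 (adjusted p 0.00363, edgeR), and of the guanylate cyclase subunit *Gucy1a1*, 5.38 (adjusted p 0.0304, edgeR), rested on few cells. In TNF-Tg at 8 weeks 1 cell held 98.6% of the *Postn*, 91.7% of the *Cox4i2* and 97.5% of the *Gucy1a1* UMIs, and at 14 weeks 1 cell held 92.9% of those of *Cox4i2*. The WT level of *Ndrg1* also rested on few cells, with 55.6%, 53.3% and 61.1% of its UMIs in 1 cell at 8, 14 and 20 weeks. Fitted values against a group at 0, as for *Postn*, depend on the prior count. Without the 39 cells with markers of another lineage, left out only once the data had been seen, the interaction of *Postn* was 7.99 with adjusted p 0.874 and that of *Ndrg1* -1.69 with adjusted p 0.25 (edgeR).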

How the results depend on the processing

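The count of 41 genes changed between genotypes was 81 with DESeq2, 512 with no filter on low counts, 490 with the rule applied to cells thinned to 2000 UMIs, 25 with at least 1000 genes and at most 5% mitochondrial UMIs, 0 with sums thinned to the lowest total and 0 with an excess of at least 3 genes (edgeR unless named; 484 genes had an unadjusted p under 0.05 in the comparison of all 199 cells). It was 110 without the keratin-rich cell and 155 without the cells of other lineages, both chosen after seeing the data. The second choice also leaves out the keratin-rich cell, so the 2 are not separate alternatives, here or for the interactions. With 1 library left out it ran from 0 to 62, and from 14 to 195 without the keratin-rich cell. With RLE size factors it was 41, with library totals 29 and with age as a replicate block 39. With the block 23 of the 29 named genes were called, and *Bmp2*, *Lgals1*, *Jag2*, *Enpp2*, *Acer2* and *Plvap* were not. The count of 4 interactions was 7 with RLE size factors, 102 with no filter, 31 with the thinned rule, 0 with sums thinned, 8 without doublets, 2 with a margin of 3, 17 without the keratin-rich cell, 20 without cells of other lineages, and 6 to 41 with 1 library left out. With the thinned rule *Postn* reversed to a log2 fold change of -1.69 and an interaction of -0.84, and *Cox4i2* to an interaction of -2.67, and with sums thinned *Ndrg1* reversed to 2.40. The causes were not tested. The share difference of 0.442 percentage points was 0.874 thinned, 0.256 without the cells of other lineages and ran from 0.094 (no TNF-Tg library of 20 weeks) to 0.628. The smallest WT sum was 78571 UMIs; the part of depth in the counts of calls was not tested.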
